A study of Danio rerio with 9 samples.

Results

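Fatty acid binding proteins are a family of small cytosolic carriers, and 10 zebrafish genes of the family were taken by gene symbol, fabp1a, fabp1b.1, fabp2, fabp3, fabp6, fabp7a, fabp7b, fabp10a, fabp11a and fabp11b. Of these 10 genes, 9 had values in both deposited tables, among 19130 genes that the tables share, and all 9 passed the minimum mean of 10 normalized counts in every comparison. The gene fabp1a was not analysed here. RNA came from whole larval zebrafish of an AB × Tübingen background after a 7-day exposure that began at the embryo stage. Perfluorononanoic acid (PFNA), a long-chain perfluoroalkyl acid, was given at 0.1 µg/L or 10 µg/L, and the control received the solvent alone. The solvent control was 0.1% dimethyl sulfoxide (DMSO), and the paper states that the PFNA stocks were prepared in 0.1% DMSO. The sample labels give no DMSO level for the exposed groups. Each group had 3 libraries, and each library was a pool of 14 to 15 larvae from a single beaker, so p-values measure the spread between beakers.

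Fatty acid binding proteins hold long-chain fatty acids and related lipids inside a barrel of β-strands and carry them through the cytosol between membranes, enzymes and nuclear receptors. Perfluoroalkyl acids resemble fatty acids in shape, and the liver forms of mammals bind several of them. The family is divided among tissues. Hepatocytes, enterocytes, bile acid absorbing cells of the distal gut, brain cells and muscle fibres each make their own forms, so whole larvae hold the forms of many organs at once.

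The DMSO libraries held 14493071 to 23963715 recovered reads, those of 0.1 µg/L held 14759340 to 18831986, and those of 10 µg/L held 17191934 to 19168248. The counts of called genes depended on single libraries. Without DMSO replicate 3, the genes at a limma adjusted p-value under 0.05 for 10 µg/L against DMSO numbered 2190, and without 0.1 µg/L replicate 2 they numbered 5125 for 10 µg/L against 0.1 µg/L, while both counts were 0 with all libraries. The DESeq2 test on recovered reads called 229 and 1679 genes in these comparisons. The first sequencing index was shared by 7 libraries and differed in DMSO replicates 1 and 2. Values below are normalized counts, that is, recovered reads divided by size factors fitted over all 9 libraries, and they compare libraries for a given gene but not one gene with another. In whole larvae, fewer cells of a type and less RNA per cell cannot be told apart.

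**Figure D1:**
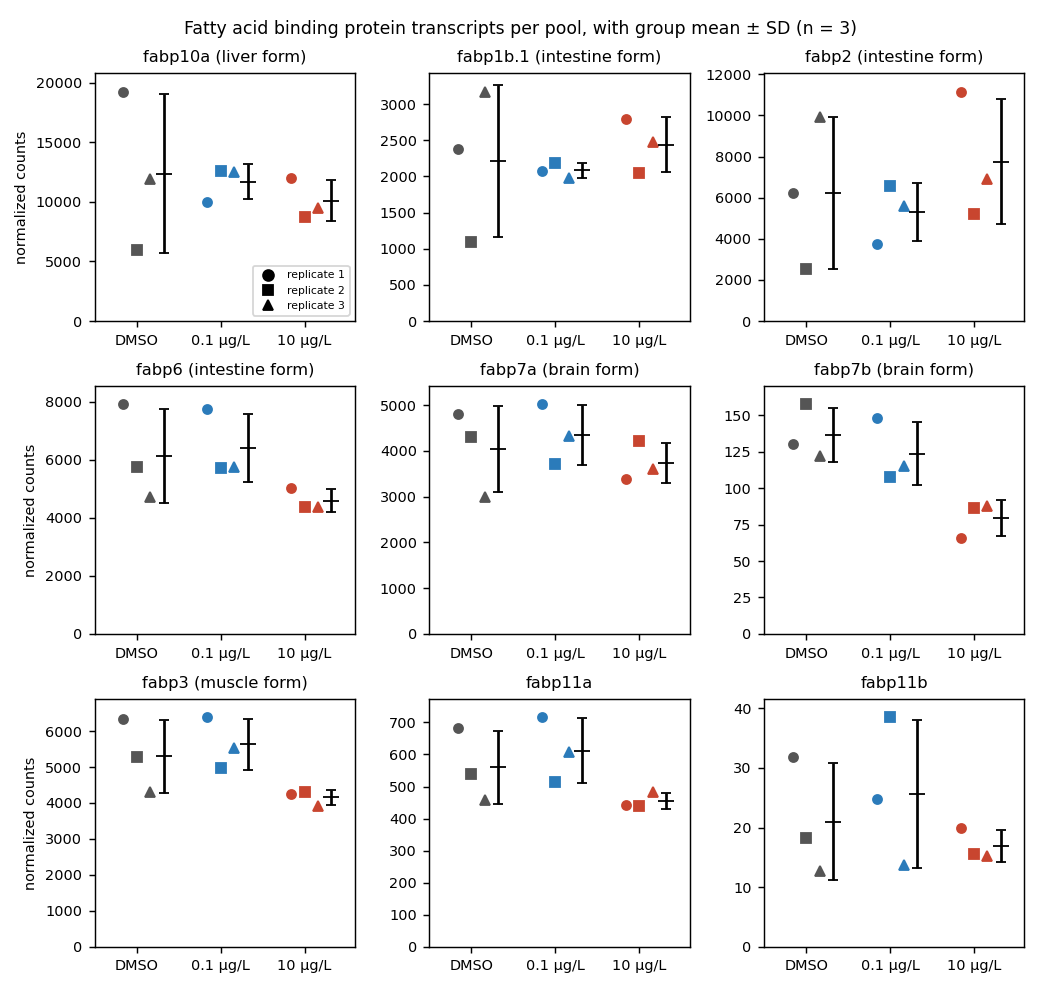
Normalized counts (vertical axis of each panel, linear and starting at 0) of the 9 fatty acid binding protein genes in every pool, by group, with group means and standard deviations. The fabp7b pools at 10 µg/L lie between 65.6 and 87.5, all below the 6 other pools, whereas fabp10a spans 5933 to 19249.6 within the DMSO control alone.

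The liver form fabp10a, the hepatocyte carrier of fatty acids and bile acids in fish, varied widely within the control. Its normalized counts were 19249.6, 5933 and 11887 in DMSO replicates 1 to 3, 9979.6, 12562 and 12502 at 0.1 µg/L, and 12034, 8759.6 and 9487 at 10 µg/L. The highest DMSO pool was 3.24 times the lowest, and every exposed pool lay between them. Group means were 12356 ± 6671 for DMSO, 11681 ± 1474 for 0.1 µg/L and 10093 ± 1719 for 10 µg/L (SD, n = 3). The log2 fold change against DMSO was 0.07 (SE 0.36) at 0.1 µg/L and -0.16 (SE 0.36) at 10 µg/L, with limma adjusted p = 1.00 and 0.885. The second value was 0.24 without DMSO replicate 1, 0.00 with quantile normalization, and -0.61 without DMSO replicate 2, where it passed an unadjusted limma p of 0.05 (adjusted p = 0.559).

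Among the intestine forms, fabp2, the carrier of absorptive enterocytes, moved from pool to pool in every group. It had 6238, 2543 and 9945 normalized counts in the DMSO pools, 3760.4, 6561 and 5608 at 0.1 µg/L, and 11162, 5230.3 and 6890.3 at 10 µg/L. DMSO replicate 3 and 10 µg/L replicate 1 were the highest pools, DMSO replicate 2 was the lowest, and all groups overlapped. At 10 µg/L the log2 fold change was 0.44 (SE 0.44, limma adjusted p = 0.707) against DMSO and 0.51 (SE 0.27, limma adjusted p = 0.259) against 0.1 µg/L. Against DMSO it was 0.88 without DMSO replicate 3 and -0.11 without DMSO replicate 2. Of the single libraries left out, only DMSO replicate 2 reversed the direction of fabp2.

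The gene fabp1b.1, a liver-type paralog made in the zebrafish intestine, had the same high and low control pools as fabp2. Its values were 2376, 1087 and 3173 in DMSO, 2080.0, 2192 and 1983 at 0.1 µg/L, and 2799, 2047 and 2474 at 10 µg/L. The pools at 0.1 µg/L stood close together, with a mean of 2085 ± 104, against 2212 ± 1053 in DMSO (SD, n = 3). No comparison of fabp1b.1 separated the groups, with log2 fold changes of 0.05 (SE 0.33) at 0.1 µg/L and 0.25 (SE 0.33) at 10 µg/L against DMSO.

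The ileal form fabp6, which binds bile acids in the distal gut, differed in pattern from both other intestine forms. Normalized counts were 7902, 5748 and 4728 in the DMSO pools, 7755, 5697.5 and 5736 at 0.1 µg/L, and 5035, 4378 and 4368 at 10 µg/L. Each 10 µg/L pool lay below each 0.1 µg/L pool, while the highest 10 µg/L pool lay above DMSO replicate 3. The means were 6126 ± 1620.4 in DMSO, 6396 ± 1177 at 0.1 µg/L and 4594 ± 382 at 10 µg/L (SD, n = 3). Against 0.1 µg/L, the 10 µg/L pools were lower by a log2 fold change of -0.47 (SE 0.14), with adjusted p = 0.0914 in limma and adjusted p = 0.0360 in DESeq2. With quantile normalization this difference was -0.29. Against DMSO the log2 fold change was -0.40 (SE 0.20, limma adjusted p = 0.436), and it was -0.19 without DMSO replicate 1 and -0.57 without DMSO replicate 3. With the first sequencing index as a covariate, which sets exposed pools against DMSO replicate 3 alone, it was -0.05.

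Among the brain forms, fabp7b had the largest log2 fold change from DMSO at 10 µg/L of the 9 genes. The brain forms fabp7a and fabp7b are the zebrafish counterparts of the fatty acid carrier of mammalian radial glia, the stem cells that give rise to neurons. The values of fabp7b were 130.3, 158 and 122 in DMSO, 148, 108 and 115 at 0.1 µg/L, and 65.6, 86.3 and 87.5 at 10 µg/L. All pools at 10 µg/L lay below all 6 other pools. Means were 137 ± 18.6, 124 ± 21.6 and 79.8 ± 12.3 (SD, n = 3 per group). These values rest on 69 to 216 reads per library.

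For fabp7b, the log2 fold change of 10 µg/L against DMSO was -0.78 (SE 0.22), with adjusted p = 0.242 in limma and adjusted p = 0.124 in DESeq2. With each library left out in turn it stayed between -0.86 and -0.65, always at an unadjusted limma p under 0.05. The limma adjusted p was 0.0419 without DMSO replicate 3. When the first index entered as a covariate, which sets exposed pools against that replicate alone, the log2 fold change was -0.62 and no longer passed the unadjusted threshold. Against 0.1 µg/L, the log2 fold change was -0.62 (SE 0.22, limma adjusted p = 0.122). That difference missed the unadjusted threshold without 0.1 µg/L replicate 1, at -0.49, and without 10 µg/L replicate 1, also at -0.49.

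Its paralog fabp7a gave 4804, 4311 and 2995 normalized counts in DMSO, 5016.5, 3717 and 4318 at 0.1 µg/L, and 3387, 4222 and 3601 at 10 µg/L. The groups of fabp7a overlapped in every comparison, and DMSO replicate 3 was the lowest pool of all. The log2 fold change of 10 µg/L was -0.10 (SE 0.20, limma adjusted p = 0.865) against DMSO, or 0.03 with quantile normalization, and -0.21 (SE 0.14, limma adjusted p = 0.349) against 0.1 µg/L.

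The muscle form fabp3, called the heart form in mammals and a carrier of fatty acids to mitochondria, had 6331, 5273 and 4299 normalized counts in DMSO, 6382, 4979.8 and 5531 at 0.1 µg/L, and 4255, 4301 and 3920.2 at 10 µg/L. The 10 µg/L pools were the most even group, with a mean of 4159 ± 208, against 5300.7 ± 1016 in DMSO and 5631 ± 706 at 0.1 µg/L (SD, n = 3). They lay below all 0.1 µg/L pools and touched the range of DMSO at replicate 3 alone. Against 0.1 µg/L the log2 fold change was -0.43 (SE 0.12), with adjusted p = 0.0816 in limma and adjusted p = 0.0246 in DESeq2. With a library left out it ranged from -0.52 to -0.34, and with quantile normalization it was -0.27. Against DMSO it was -0.34 (SE 0.18, limma adjusted p = 0.436), and -0.05 once the first index was a covariate.

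The remaining pair, fabp11a and fabp11b, corresponds to the adipocyte form of mammals, and RefSeq lists the genes as fabp4a and fabp4b. The values of fabp11a were 684, 539 and 458 in DMSO, 716, 513 and 606 at 0.1 µg/L, and 442, 438 and 483 at 10 µg/L. The 10 µg/L pools lay below the 0.1 µg/L pools, with a log2 fold change of -0.42 (SE 0.14, limma adjusted p = 0.113), and without 0.1 µg/L replicate 1 it was -0.30 and missed an unadjusted p of 0.05. Against DMSO the log2 fold change was -0.29 (SE 0.18, limma adjusted p = 0.507), and -0.02 once the first index was a covariate. The second gene, fabp11b, was read too rarely to resolve such differences, with 12 to 40 reads per library. Its normalized counts were 31.8, 18.2 and 12.8 in DMSO, 24.7, 38.5 and 13.7 at 0.1 µg/L, and 20.0, 15.6 and 15.1 at 10 µg/L, and the standard error of its log2 fold changes was 0.45 to 0.52.

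**Figure D2:**
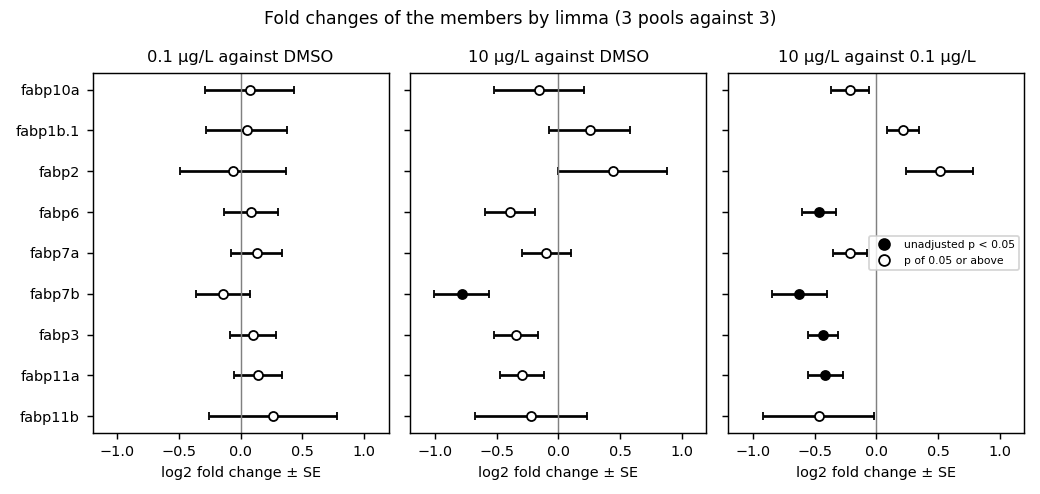
Log2 fold changes of the 9 genes with their standard errors from limma (horizontal axis) for 0.1 µg/L against DMSO, 10 µg/L against DMSO and 10 µg/L against 0.1 µg/L. In the first panel all values lie between -0.14 and 0.26, and in the third fabp3, fabp6, fabp11a and fabp7b lie between -0.62 and -0.42.

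At 0.1 µg/L against DMSO, 0 of the 9 genes had a limma adjusted p-value under 0.05, as did 0% of the 19065 genes tested. At an unadjusted p under 0.05, 0 of 9 were called by limma, DESeq2 or edgeR, which called 1.57%, 1.41% and 1.63% of all genes. The groups were separate for 0 of 9 genes and for 6.63% of all genes. The log2 fold changes ran from -0.14 for fabp7b to 0.26 for fabp11b, with a median of 0.08 against 0.00 over all genes, and 2 of 9 were below 0, as were 49.4% of all values. Leaving out single libraries moved fabp10a between -0.38 and 0.47 and fabp2 between -0.60 and 0.38 in this comparison.

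At 10 µg/L against DMSO, 0 of 9 genes passed the adjusted threshold in limma, where 0% of all genes did, and 0 of 9 in DESeq2, where 1.17% did. At an unadjusted p under 0.05, limma called 1 of 9, fabp7b, and 13.1% of the 19610 genes in either direction, or 5.21% lower. By edgeR fabp7b was again the 1 gene called, with 12.8% of all genes, and by DESeq2 fabp6 and fabp7b were called, with 12.3%. Without DMSO replicate 3, 5 of the 9 genes had an unadjusted p under 0.05, fabp2 higher and fabp3, fabp6, fabp7b and fabp11a lower, while 26.9% of all genes were called in that setting, 14.8% higher and 12.1% lower. On the scale of that table, fabp3 and fabp7b were lower without overlap, 2 of 9 genes, beside 18.0% of all genes in either direction and 8.24% lower. The median log2 fold change was -0.22, against 0.01 over all genes, and 7 of 9 values were below 0, as were 49.2% of all values.

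Between the concentrations, 4 of 9 genes had an unadjusted limma p under 0.05, fabp3, fabp6, fabp7b and fabp11a, and all 4 were lower at 10 µg/L and separated the groups. Over all 18965 genes, 25.7% were called in either direction and 11.5% were called lower, while 28.7% were without overlap in either direction and 13.9% were lower. The edgeR test called the same 4 members and 24.8% of all genes, and DESeq2 called these and fabp2, and 23.5%. With quantile normalization, limma called these 4 lower and also called fabp1b.1 (0.31) and fabp2 (0.66) higher. In that setting 12.5% of all genes were called higher and 13.0% lower. The median of the 9 log2 fold changes was -0.42, against 0.00 over all genes, and 7 of 9 were below 0, as were 49.7% of all values. After adjustment 0 of 9 genes passed in limma, as did 0% of all genes. In DESeq2 2 of 9 passed, fabp3 and fabp6, where 8.85% of all genes did and 4.01% were lower. Without 0.1 µg/L replicate 2, 4 of 9 genes passed the adjusted threshold in limma, with adjusted p from 0.00561 for fabp3 to 0.0405 for fabp7b, and 27.0% of all genes passed it in that setting. Both comparisons with DMSO share the same 3 control pools. The calls of fabp3, fabp6 and fabp11a are not independent either. Pearson's r between any pair of them was 0.93 to 0.96 over the 9 pools.

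**Figure D3:**
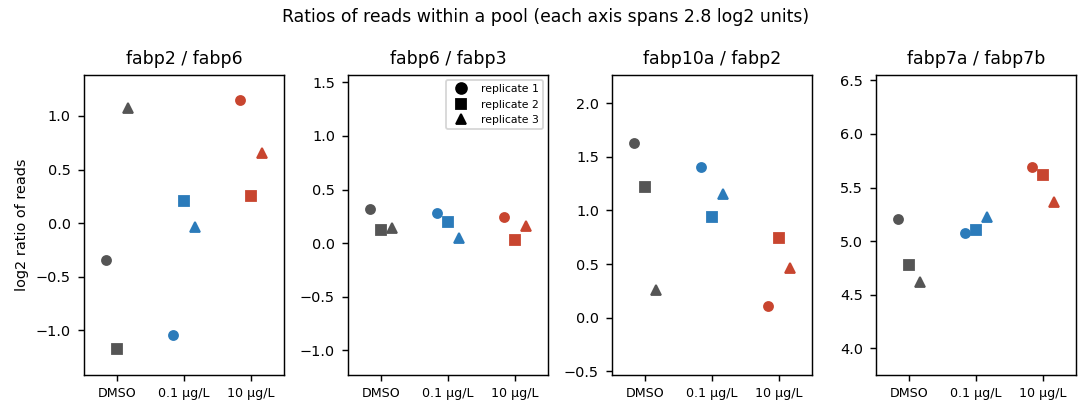
Log2 ratios of recovered reads between pairs of family members within each pool (vertical axis), by group, which do not depend on how libraries were scaled. The fabp7a to fabp7b ratio lies between 5.36 and 5.69 at 10 µg/L and between 4.62 and 5.23 in the other 6 pools.

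Ratios of reads within a library do not depend on scaling, and the plot of read ratios shows how the forms parted from each other. The log2 ratio of fabp7a to fabp7b was 5.20, 4.77 and 4.62 in DMSO, 5.08, 5.11 and 5.23 at 0.1 µg/L, and 5.69, 5.61 and 5.36 at 10 µg/L. It was higher in each 10 µg/L pool than in any other pool, so the lower fabp7b at 10 µg/L was not matched by fabp7a. Set against fabp3, however, fabp7b did not separate the groups. Its log2 ratio to fabp3 was -5.60 to -5.06 in DMSO and -5.59 to -5.43 at 0.1 µg/L. At 10 µg/L this ratio was -6.02 to -5.49. The log2 ratio of fabp7a to fabp3 averaged -0.40 in DMSO, -0.38 at 0.1 µg/L and -0.16 at 10 µg/L. The enterocyte and ileal forms also parted. The log2 ratio of fabp2 to fabp6 was -0.34, -1.18 and 1.07 in DMSO, -1.04, 0.20 and -0.03 at 0.1 µg/L, and 1.15, 0.26 and 0.66 at 10 µg/L. The 10 µg/L pools lay above the 0.1 µg/L pools but overlapped DMSO, with only 10 µg/L replicate 1 above DMSO replicate 3. In contrast, the ileal form and the muscle form kept a narrow ratio, since log2 of fabp6 over fabp3 stayed between 0.03 and 0.32 in all 9 pools. Liver and enterocyte forms ranged more widely, with log2 of fabp10a over fabp2 at 0.26 to 1.63 in DMSO, 0.94 to 1.41 at 0.1 µg/L and 0.11 to 0.74 at 10 µg/L.

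The same grouping appeared in the correlations of log2 values over the 9 pools, which are a description of pools that share groups and scaling. Pearson's r was 0.96 between fabp6 and fabp3, 0.95 between fabp3 and fabp11a, 0.93 between fabp6 and fabp11a and 0.91 between fabp1b.1 and fabp2. It was -0.39 between fabp2 and fabp6, and -0.73 between fabp2 and fabp7a. Together the 9 genes took 0.147% to 0.226% of recovered reads in DMSO, 0.187% to 0.201% at 0.1 µg/L and 0.187% to 0.215% at 10 µg/L, ranges that overlap.

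**Figure D4:**
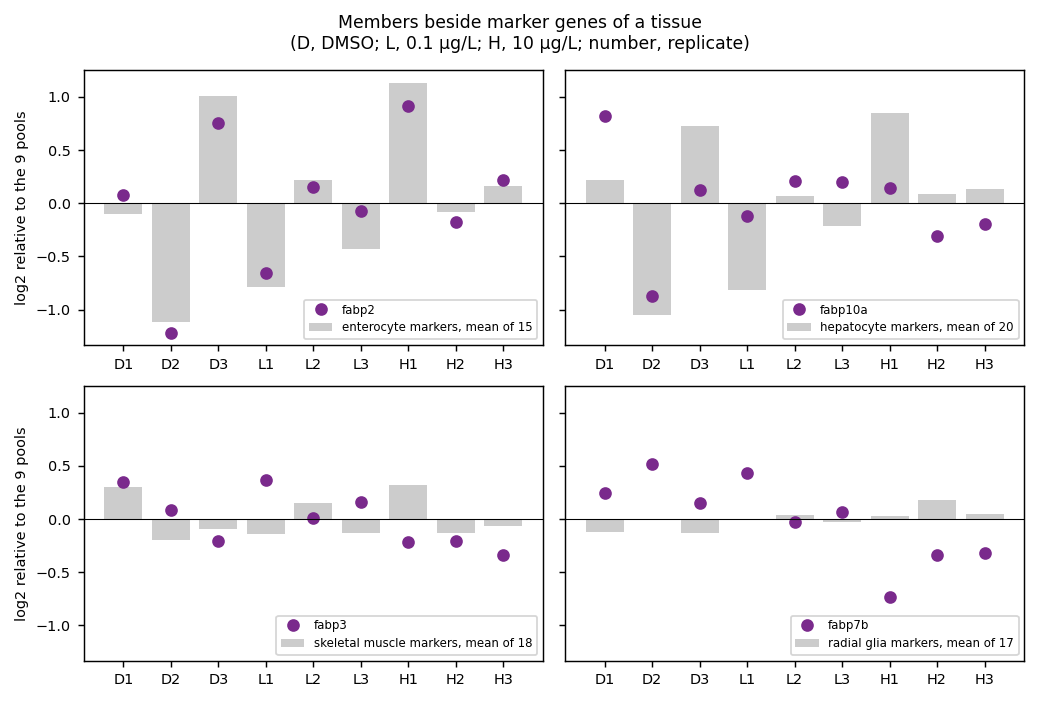
Log2 levels in each of the 9 pools relative to their mean over the pools (vertical axis), as points for fabp2, fabp10a, fabp3 and fabp7b and as grey bars for the mean of the enterocyte, hepatocyte, skeletal muscle and radial glia markers. The fabp2 points lie near the bars of the 15 enterocyte markers in every pool, whereas the fabp7b points at 10 µg/L lie below 0 where the bars of the 17 radial glia markers lie above it.

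The members were then set beside marker genes listed for the cells that make them. The 15 enterocyte markers summed to 12306 to 40963 normalized counts in DMSO, 16338 to 28875 at 0.1 µg/L and 23244 to 49545 at 10 µg/L, and fabp2 stayed within a root mean square of 0.19 (log2) of their mean course over the 9 pools. For fabp1b.1 this distance was 0.41 and for fabp6 it was 0.89, and the markers themselves spanned 2.25. Neither fabp1b.1 nor fabp6 lay closer to these markers than to its own mean. Between the concentrations 6 of the 15 were higher and 0 lower at an unadjusted limma p under 0.05, with a median of 0.77. Over all genes 14.2% were higher and 11.5% lower. For 10 µg/L against DMSO, 0 of the 15 were called, beside 13.1% of all genes. The 9 genes listed as ileal enterocyte markers had a median log2 fold change of -0.06 between the concentrations, and fabp6 was at -0.47. At an unadjusted limma p under 0.05, 1 of the 9 was higher and 0 lower, beside 14.2% higher and 11.5% lower over all genes. The higher gene was slc51a, at 0.85 (limma adjusted p = 0.0820), opposite in direction to fabp6. Whether these 9 genes mark the cells that make fabp6 was not tested. The root mean square distance of fabp6 to these 9 markers was 0.33, and they spanned 0.55. The values of fabp6 spanned 0.86 and lay slightly closer to their own mean than to these markers. The distance therefore does not show a shared course. The part of gut cell content in the fabp2 and fabp6 values was not tested.

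For the liver, 13 of 20 hepatocyte markers were above their 0.1 µg/L level in the 10 µg/L pools at an unadjusted limma p under 0.05 and 0 were below, where 14.2% of all genes were called higher, with a median of 0.75, while fabp10a was at -0.22 (SE 0.15). Among them, tfa (transferrin) was at 1.32 and ces2, a carboxylesterase, at 1.02 on the log2 scale. For 10 µg/L against DMSO, 0 of the 20 were called higher and 1 lower, beside 7.91% and 5.21% of all genes, with a median of 0.39. The lower marker was rbp4, at -0.52 (limma adjusted p = 0.286). The summed level of the hepatocyte markers was 19115 to 59036 in DMSO, 21135 to 34647 at 0.1 µg/L and 36950.2 to 55507 at 10 µg/L. Over the 9 pools fabp10a differed from the hepatocyte course by a root mean square of 0.49, more than from its own mean. Of the brain forms, fabp7a had a root mean square distance of 0.13 to the 12 neuron markers and 0.24 to the 17 radial glia markers. For fabp7b these distances were 0.30 and 0.43. Both genes lay closer to their own mean than to the radial glia markers, but not closer than to the neuron markers. Of the neuron markers 9 of 12 were lower at 10 µg/L than at 0.1 µg/L at that threshold, where 11.5% of all genes were, with a median of -0.39. For 10 µg/L against DMSO 0 of the 12 were called, beside 13.1% of all genes. In that comparison 11 of the 12 were below 0, as were 49.2% of all values, with a median of -0.25. The sums of the neuron markers were 48629.9 to 75457 in DMSO, 59176 to 81477 at 0.1 µg/L and 54459 to 57164 at 10 µg/L. For radial glia 1 of 17 was higher, notch3, and 1 lower, her4.1, beside 14.2% and 11.5% of all genes, with a median of 0.04 where fabp7b was at -0.62. For 10 µg/L against DMSO, 2 of the 17 were higher at that threshold and 0 lower, beside 7.91% and 5.21% of all genes. The higher markers were notch3 at 1.25 and ptn at 0.61, and the median was 0.07 where fabp7b was at -0.78. The sums of the radial glia markers were 35188.5 to 43057 in DMSO, 40323 to 42637 at 0.1 µg/L and 42058 to 44769.9 at 10 µg/L.

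The 18 skeletal muscle markers had a median of -0.01 between the concentrations, with 3 higher and 1 lower at an unadjusted limma p under 0.05, where 14.2% and 11.5% of all genes were, and fabp3 was at -0.43. Their mean course on the log2 scale spanned -0.20 to 0.30 in DMSO, -0.14 to 0.15 at 0.1 µg/L and -0.13 to 0.32 at 10 µg/L. From this course fabp3 differed by a root mean square of 0.30, more than from its own mean. Its distance to the course of 7 heart markers was larger, at 0.54. Between the concentrations 0 of these 7 heart markers were called, beside 25.7% of all genes, with a median of 0.24. No marker of these lists was at 0 in any library. What part cell content had in the liver, brain and muscle values was not tested.

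Genes whose course over the 9 pools was most like that of each member were named by Pearson's r of log2 values among 14262 genes whose mean reached 50 normalized counts. For fabp2 they were cyp3a65 (r = 0.99), zgc:158846 (0.99) and cd36 (0.99), the last a fatty acid receptor and transporter. For fabp6 they were the ribosomal protein genes rplp2l (0.99), rps26l (0.98) and rpl24 (0.98), and for fabp3 wdr83os (0.99), rrp7a (0.99) and tmsb4x (0.99). The liver form fabp10a was most like trip4 (0.98), hpda (0.97), which encodes a tyrosine-degrading dioxygenase, and hemgn (0.97). The brain forms were most like rab1bb (0.98), runx1t1 (0.98) and arid1b (0.97) for fabp7a and cox17 (0.97), sytl2a (0.96) and txn (0.96) for fabp7b. For fabp1b.1 the genes were zgc:77739 (0.98), uroc1 (0.95) and the enterocyte marker tm4sf5 (0.95), and for fabp11a rnf40 (0.98), zgc:153012 (0.98) and syf2 (0.98). With 9 pools and this many genes, high values of r arise for many genes, and these names describe likeness only.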

How the data were processed

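Poly(A) RNA of 9 pools of whole larvae was sequenced. The authors trimmed reads with Trimmomatic 0.36, mapped them to GRCz10 with STAR 2.5.2b and counted them on exons with featureCounts of Subread 1.5.2. The deposited values are a signal made by dividing the read count of a gene by the DESeq2 size factor fitted over the 6 libraries of a table, with 1 table per concentration and the same DMSO libraries in both. The tables also hold the authors' log2 fold changes and p-values, which were not used. No column held another sample.

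Values were whole multiples of the value of 1 read within 0.01, which gave recovered reads. The value of 1 read was inferred from these steps, and in DMSO replicate 3 the smallest value present stood for 2 reads. The main test was limma 3.58.1 (R 4.3.3), two-sided, on log2 of the value plus 1 with a trend, for genes with a mean of at least 10 over 6 libraries, so fold changes of low genes are understated. Benjamini-Hochberg adjustment ran over all genes tested, with a threshold of 0.05, and an unadjusted 0.05 was the second call. Each concentration was compared with DMSO in its own table, and the concentrations on reads of all 9 libraries scaled together. Alternatives were edgeR 4.0.16 and DESeq2 1.42.0, each library left out, a replicate block, a covariate for the first index, a fit of all 9 libraries, limma with robust moderation or with no trend, quantile and TMM normalization, a minimum mean of 1, of 50 or none, and a pseudocount of 0.5 or 5. Tests were tested on simulated data. Figures were drawn in Python 3.11.15.

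The members, the marker lists and the lists of related genes were chosen with earlier results of these data known. All members are named, together with up to 4 genes of a list with the smallest p among those called and the 3 genes most like each member. Of the symbols, 8 matched RefSeq by symbol and 2 by synonym. Gene lengths and sequences were not used here, so levels of different genes are not ranked. The depth ranges stand in the report, and the precision of low genes is limited by their reads.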

Additional observations from a re-analysis of the deposited data

How the results depend on the processing

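Log2 fold changes under alternatives were tallied for the members in all comparisons and for other named genes where they had an unadjusted p under 0.05. Of these, 1025 kept direction and side of the adjusted threshold, 49 passed the threshold newly and 30 changed sign, all of the last in members except rxrba. Against DMSO at 0.1 µg/L, fabp1b.1 was -0.0931 with edgeR, -0.0845 with DESeq2 and -0.61 with the first index as a covariate, and fabp10a was -0.0841, -0.0777 and -0.0366. With that covariate fabp7b was 0.00395. At 10 µg/L it gave fabp1b.1 -0.40, fabp2 -0.44, fabp7a 0.31, fabp11b 0.37 and rxrba -0.13, and quantile normalization gave fabp10a 0.0021 and fabp7a 0.0331. Leaving out 1 library gave, at 0.1 µg/L, fabp1b.1 -0.40 to 0.38, fabp2 -0.60 to 0.38, fabp6 -0.0832 to 0.28, fabp10a -0.38 to 0.47, fabp7a -0.0683 to 0.27, fabp3 -0.037 to 0.24 and fabp11b -0.0776 to 0.64. At 10 µg/L it gave fabp1b.1 -0.19 to 0.58, fabp2 -0.11 to 0.88, fabp10a -0.61 to 0.24, fabp7a -0.30 to 0.0426 and fabp11b -0.51 to 0.12. The cause was not tested.

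The count of members at an unadjusted p under 0.05 for 10 µg/L against DMSO was 1, and became 2 with DESeq2, 0 with the index covariate, where 7.15% of all genes were called, and 1 to 5 with a library left out, where 6.64% to 26.9% were. For 0.1 µg/L against DMSO it was 0 and became 1 with the covariate, where 11.7% of all genes were called, and between the concentrations it was 4 and ran from 2 to 6 with a library left out, where 15.2% to 39.1% were. With a library left out, members at a limma adjusted p under 0.05 ran from 0 to 1 for 10 µg/L against DMSO, where 0% to 11.2% of all genes passed. Between the concentrations they ran from 0 to 4, where 0% to 27.0% of all genes passed. With DESeq2 they were 2 between the concentrations, where 8.85% of all genes passed. Over all genes, the split of unadjusted calls between the concentrations moved from 2690 higher and 2178 lower to 2372 and 2460 with quantile normalization. In that setting fabp1b.1 and fabp2 were called higher beside the 4 members called lower.

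The mean correlation of deviations between same-numbered libraries was -0.11, 0.06 and 0.03 in the 3 comparisons, with single pairs from -0.36 to 0.28. So few pairs cannot settle whether replicate numbers paired the samples, and the main test did not pair them. With the number as a block, the members at an unadjusted p under 0.05 were 3 for 10 µg/L against DMSO, 0 for 0.1 µg/L and 4 between the concentrations, where 14.8%, 0.981% and 24.5% of all genes were called. After adjustment 0 members passed, and over all genes 3.90% did between the concentrations and 0% in the other comparisons.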

Other observations

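Other proteins of the same β-barrel superfamily, which carry retinoids and fatty acids, were counted from a list of 18 symbols, of which 11 were tested. At 10 µg/L against DMSO 3 of 11 were lower and 0 higher at an unadjusted limma p under 0.05, beside 5.21% lower over all genes. At 0.1 µg/L against DMSO 2 of 11 were lower and 0 higher, beside 0.813% lower over all genes. The paralog of the liver form, fabp10b, had 33.3, 62.7 and 27.9 normalized counts in DMSO, 20.8, 18.3 and 16.0 at 0.1 µg/L and 9.51, 22.9 and 12.6 at 10 µg/L. These values rest on only 10 to 86 reads per library. Both exposed groups of fabp10b lay below the control, with log2 fold changes of -1.04 (SE 0.42, limma adjusted p = 1.00) and -1.42 (SE 0.46, limma adjusted p = 0.273), both at an unadjusted p under 0.05. Over all genes, 6.63% were without overlap and 1.57% were called at 0.1 µg/L in either direction, and 18.0% and 13.1% at 10 µg/L. Without DMSO replicate 2 the log2 fold changes of fabp10b were -0.71 and -1.08 and neither passed the unadjusted threshold. The retinol carrier rbp7b, with only 11 to 39 reads per library, was also low in both groups against the same control pools, at -0.96 and -1.06 (limma adjusted p = 1.00 and 0.326). Without DMSO replicate 1, rbp7b was at -0.76 and -0.85 and passed no unadjusted p of 0.05. The retinoic acid carrier crabp1a was at -0.55 at 10 µg/L against DMSO (limma adjusted p = 0.362), and without that same replicate crabp1a was at -0.31 and not called. Leaving out several other libraries also ended these calls of rbp7b and crabp1a against DMSO. Between the concentrations crabp1a was at -0.50, while rbp2b, a paralog of the gut retinol carrier, was at 0.78 (limma adjusted p = 0.0968 and 0.0913).

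A list of PPAR and RXR receptors that also holds hnf4a, another nuclear receptor, was compared between the concentrations. It includes sensors of fatty acids. Of 10 tested genes, 4 were higher at 10 µg/L at an unadjusted limma p under 0.05 and 0 lower, beside 14.2% higher over all genes. Among them pparaa was at 0.95, rxrba at 2.08, rxrbb at 0.98 and hnf4a at 0.90 on the log2 scale, with limma adjusted p from 0.0767 to 0.108. Leaving out a library moved rxrba between 1.62 and 2.78, the latter without 0.1 µg/L replicate 2, and hnf4a missed an unadjusted p of 0.05 without 10 µg/L replicate 1 (0.60) or 0.1 µg/L replicate 3 (0.76). Values of rxrba were 40.9, 58.3 and 202 in DMSO, 22.1, 114 and 30.8 at 0.1 µg/L and 150.2, 258 and 164 at 10 µg/L, so DMSO replicate 3 and 0.1 µg/L replicate 2 stood above the other pools of their groups. For 10 µg/L against DMSO, 2 of the 10 receptors were higher at that threshold and 0 lower, beside 7.91% and 5.21% of all genes. They were pparaa at 0.70 and rxrba at 1.21 (limma adjusted p = 0.362 and 0.346), and both overlapped the control. Between the concentrations, genes of fatty acid uptake and activation were higher in 5 of 23 and lower in 0 at an unadjusted limma p under 0.05. Over all genes 14.2% were higher and 11.5% lower. For 10 µg/L against DMSO, 1 of these 23 genes was higher, slc27a1b, and 0 were lower, beside 7.91% and 5.21% of all genes. The fatty acid transporter gene slc27a1b had 33.3, 38.7 and 60.6 normalized counts in DMSO and 108, 77.1 and 76.6 at 10 µg/L, without overlap. Over all genes 18.0% were without overlap in either direction in that comparison. Its log2 fold change against DMSO was 0.98 (SE 0.30, limma adjusted p = 0.263). The acyl-CoA synthetase genes acsl1b and acsl4a were at 0.79 and 0.54 between the concentrations (limma adjusted p = 0.0816 and 0.0940).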
